A study of Homo sapiens with 6 samples.

Results

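NEUROD1 encodes NeuroD1, the transcription factor that the series mapped, so the locus of this gene shows where the factor was listed at its own gene. The series used H82 and H524, human small cell lung cancer lines grown in culture without treatment. Chromatin was immunoprecipitated in each line with an antibody against NeuroD1 or against H3K4me3 and sequenced, and an input library was made without antibody. The groups are therefore H82 NeuroD1, H524 NeuroD1, H82 H3K4me3 and H524 H3K4me3, with 1 library each. All regions that touch 182.3 to 182.8 Mb of chromosome 2 in build hg19 were taken, without regard to their score. They numbered 52 of the 61250 distinct regions in the 4 lists. H82 NeuroD1 had 6 of 3854, H524 NeuroD1 had 20 of 20593, H82 H3K4me3 had 9 of 18208 and H524 H3K4me3 had 17 of 18595. NEUROD1 itself lies at 182.541 to 182.545 Mb on the minus strand, so its 5′ end is at the higher coordinate and upstream means higher coordinates. These bounds are given to the nearest kb, which leaves an uncertainty of 0.5 kb in every distance from the gene. Each list rests on 1 library, so the lines are described without p-values, and the depth of each library is unknown.

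NeuroD1 is a basic helix-loop-helix factor. Such factors bind DNA as dimers with an E-protein at short motifs called E-boxes, and NeuroD1 drives neuronal and endocrine differentiation. Small cell lung cancer is a neuroendocrine tumour, and NEUROD1 defines one of its transcriptional subtypes. H3K4me3 is trimethylation of histone H3 at lysine 4, a mark of the nucleosomes that flank active transcription start sites. A wide block of the mark often covers genes that specify a cell's identity.

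The promoter is shown because regions of all 4 lists cover the nominal 5′ end of the gene. The sequence is the 250 bases before the transcription start in RefSeq (GRCh38.p14, chr2:181680518-181680767, minus strand), written 5′ to 3′ as transcribed.
NEUROD1 promoter: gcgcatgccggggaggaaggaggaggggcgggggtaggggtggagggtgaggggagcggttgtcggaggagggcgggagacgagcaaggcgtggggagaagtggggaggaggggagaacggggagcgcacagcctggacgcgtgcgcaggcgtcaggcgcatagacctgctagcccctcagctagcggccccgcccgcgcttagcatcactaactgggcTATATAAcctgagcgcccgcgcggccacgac
Capitals mark the letters TATATAA, a form of the TATA box, which lie 31 to 25 bases before the start. This motif, searched on both strands, was present in 849 of the 35116 RefSeq promoters of the same length (2.42%). The general E-box CANNTG, which reads alike on both strands and cannot overlap TATATAA, was not found in these 250 bases, while 61.8% of the promoters held it. The NEUROD1 promoter was 70.0% G and C, against a median of 58.0% over all promoters. It held 24 CpG dinucleotides, against a median of 11. Letters outside this window were not searched, although the NeuroD1 regions described next are wider than it.

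NeuroD1 was listed at the 5′ end of its own gene in both lines. In H82 this was chr2:182544227-182545847, the only NeuroD1 region of that line within 5 kb of the gene. It was 1621 bp wide and held 2 entries that scored 2.86 and 1.61, where the lowest score of its list was 1.30. Scores are the authors' values for a region, read as −log10 of an adjusted p-value, and serve here only to rank regions within a list. In H524 the region chr2:182543884-182546424 was 2541 bp wide, held 2 entries that scored 26.9 and 15.4, and contained the whole H82 region. Both regions cover the 5′ end with more than its uncertainty on either side.

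By width these regions were near the top of their lists, and by score they stood at very different places. The H82 region ranked 26 of 3854 by width and was the widest NeuroD1 region of that line on chromosome 2, but ranked 2470 by score. Its percentile, the share of its list below it, was therefore 99.3 by width and 34.9 by score. All 25 other H82 NeuroD1 regions of at least that width had higher scores, from 4.19 upward with a median of 15.1. Of these 25, 10 were on chromosome 8, and the other 15 also all scored higher, with a median of 8.95. Conversely, the 38 other H82 regions with the same score of 2.86 had a median width of 367 bp and were at most 705 bp wide. The H524 region ranked 287 of 20593 by score and 52 by width, with percentiles of 98.6 and 99.7. On chromosome 2 it was 6 of 1629 by score and 3 by width. Of the 51 other H524 NeuroD1 regions at least as wide, 30 scored lower. Of those 51, 19 were on chromosome 8, and 27 of the other 32 scored lower. A rank is a place within 1 list, so these values do not measure a difference in binding between the lines.

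Copy number was not measured and its part in these ranks was not tested. The median score percentile of all regions on chromosome 2 was 44.4 in H82 NeuroD1, 46.8 in H524 NeuroD1, 52.3 in H82 H3K4me3 and 51.3 in H524 H3K4me3. The chromosome as a whole thus ranked near the middle of each list.

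**Figure D1:**
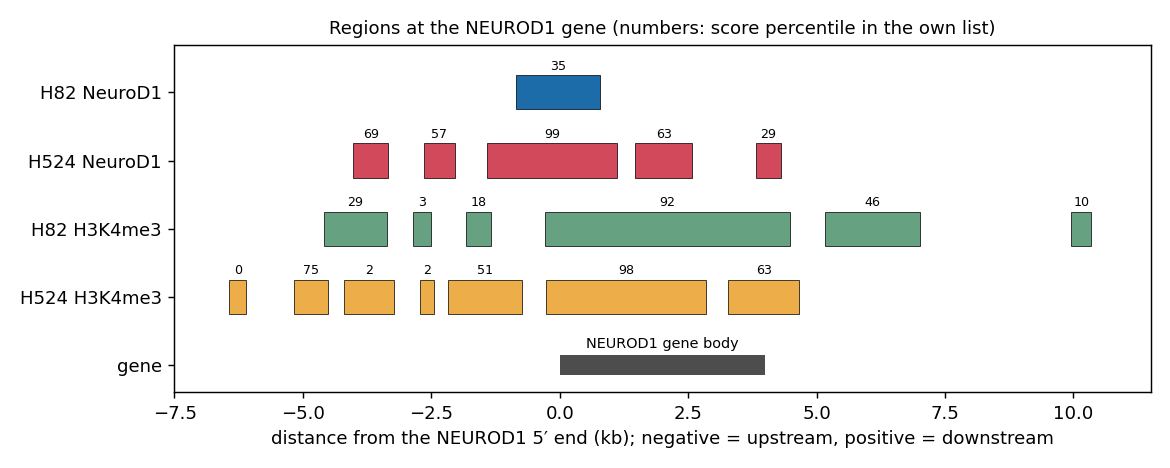
Regions of the 4 lists at the NEUROD1 gene, drawn to scale by distance in kb from its 5′ end and turned so that transcription runs from left to right; the number over a bar is its score percentile within its own list. NeuroD1 covers the 5′ end in both lines, at percentiles of 34.9 in H82 and 98.6 in H524, and H3K4me3 covers the gene body.

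H524 had NeuroD1 regions over the gene body and upstream of it as well. The region chr2:182542421-182543528 lies within the gene, scored 5.38 and had a percentile of 63.2. The region chr2:182540686-182541187 crosses the nominal 3′ end of the gene, and its score of 2.74 gave a percentile of 28.5. Upstream lay chr2:182547050-182547645, 2.05 kb from the gene with a score of 4.90, and chr2:182548340-182549021, 3.34 kb away with a score of 6.11. Their percentiles were 57.5 and 69.0. None of these 4 regions overlapped an H82 NeuroD1 region, where 9.98% of the whole H524 list did. Listed NeuroD1 covered 0.774 kb of the 4.0 kb gene body in H82 and 2.41 kb in H524. When the H524 list was limited to its 3854 highest-scoring regions, the length of the H82 list and a choice made after the data had been seen, these 4 regions were left out and the H524 coverage was 1117 bp.

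H3K4me3 formed a wide block over the NEUROD1 gene in both lines. In H82 a single region, chr2:182540510-182545292, covered the whole nominal gene body. It was 4783 bp wide and held 11 entries with scores from 1.62 to 8.90. It ranked 56 of 18208 by width, the widest H3K4me3 region of H82 on chromosome 2, and 1439 by score, with percentiles of 99.7 and 92.1. Among the 55 other H82 H3K4me3 regions of at least its width, 3 scored lower and the median score was 14.5. In H524 the block was split in a pair of regions, with 3.57 kb of the gene body covered. The larger, chr2:182542145-182545269, was 3125 bp wide and held 3 entries that scored 12.7, 7.10 and 6.26. It ranked 68 of 18595 by width and 373 by score, and had percentiles of 99.6 and 98.0. Among the 67 other H524 H3K4me3 regions at least as wide, 42 scored lower. The smaller, chr2:182540339-182541716, scored 4.62 with a percentile of 62.5 and crossed the 3′ end of the gene. In both lines the NEUROD1 gene thus carried one of the widest regions of the promoter mark in the list.

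**Figure D2:**
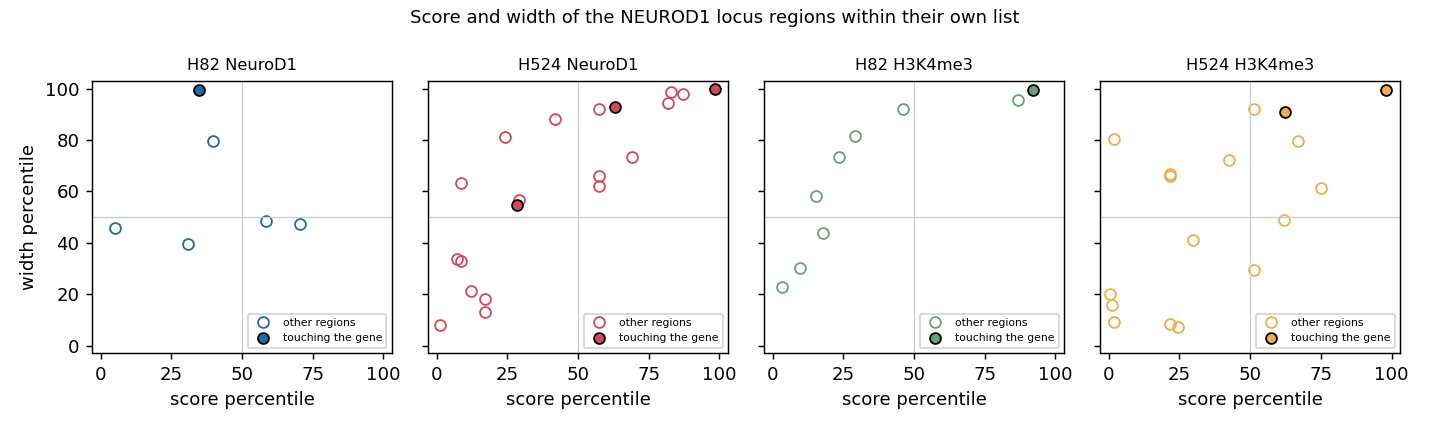
Each point is a region of the NEUROD1 locus, with its percentile by score on the x axis and by width on the y axis, both within its own list; filled points touch the gene. The H82 NeuroD1 region on the gene has a width percentile of 99.3 at a score percentile of 34.9, while the highest-scoring gene region of the other 3 lists is above 90 on both axes.

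The widest mark regions ended almost at the same base in both lines, close to the 5′ end of the gene. The H82 region ended at 182545292 and the H524 region at 182545269, 292 and 269 bp beyond the nominal 5′ end, which is within the uncertainty of that position. Beyond these ends followed a gap in listed H3K4me3. In H82 this gap was 1039 bp long, and in H524 it was 463 bp long. NeuroD1 covered 555 bp of the H82 gap and all 463 bp of the H524 gap. The NeuroD1 region on the 5′ end therefore lay across the upstream edge of the marked block in both lines. In H82, 1066 of its 1621 bp (65.8%) were under H3K4me3. In H524, 2078 of the 2541 bp (81.8%) were under the mark, shared between the region of the gene body and the next one upstream.

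The mark continued upstream in smaller regions. H82 had 3 of them, from 182546332 to 182549595, with scores of 2.11, 1.49 and 2.68 and percentiles of 29.2 or less. H524 had 5, from 182545733 to 182551433, and 2 of these scored above the median of their list. They were chr2:182545733-182547180 with a score of 3.83, and chr2:182549521-182550173 with a score of 5.94. Downstream of the gene, H82 had a 1847 bp region at chr2:182537994-182539840 with a score of 3.59, and a region of 391 bp at chr2:182534656-182535046 with a score of 1.56. Neither overlapped an H524 region, where 52.4% of the whole H82 list overlapped the mark of H524. Over the 16.8 kb that hold all these regions, 10.3 kb downstream to 6.43 kb upstream of the 5′ end, the mark covered 9.10 kb in H82 and 8.21 kb in H524. The 5.97 kb that both covered was 65.6% of the H82 and 72.6% of the H524 length. NeuroD1 covered 1.62 kb there in H82 and 5.43 kb in H524, and 86.7% of the H524 length was under H3K4me3 of H524.

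A stretch of NeuroD1 regions lay downstream of the gene. It extended over 31.2 kb, from 182478196 to 182509381, or 66.8 to 35.6 kb downstream of the 5′ end, and was defined by joining the regions of all lists within 10 kb of each other. H82 had 4 of its 6 NeuroD1 regions in it and H524 had 11 of 20. In RefSeq, the next protein-coding genes in this direction are CERKL, a ceramide kinase-like gene linked to retinal disease, and then ITGA4, which encodes an integrin subunit. ITPRID2 follows NEUROD1 on the other side. Their positions in hg19 were not used here, so the stretch is described by coordinates alone.

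The highest NeuroD1 score of the locus in H82 was in this stretch, not at the promoter. The region chr2:182507105-182507510 was 406 bp wide and scored 5.23, with a percentile of 70.5. A second H82 region, chr2:182508191-182508568, lay 0.680 kb away with a score of 2.59. Both overlapped a single H524 region, chr2:182506939-182508529, which was 1591 bp wide, held 4 entries and scored 10.6. That was the second-highest score of the H524 locus, with a percentile of 87.2. At chr2:182499251-182499650, H82 NeuroD1 scored 1.53, near the lowest score of its list, at a percentile of 5.09. The overlapping H524 region chr2:182497904-182499651 was 1748 bp wide and scored 8.96, at a percentile of 82.8 in its own list. The H82 region chr2:182496798-182497408 scored 3.13 (percentile 39.9) and lay within the H524 region chr2:182496539-182497473, which scored 3.64 (percentile 41.8). An H524 region overlapped each of the 4 H82 regions of the stretch, where 53.6% of the whole H82 list overlapped the far longer H524 list.

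H524 also had NeuroD1 here where H82 had none listed. That holds for most of the H524 list, of which 9.98% overlapped H82 NeuroD1. The region chr2:182492838-182494020 was 1183 bp wide and scored 8.73, with a percentile of 81.8. The region chr2:182479380-182480452 was 1073 bp wide and scored 4.90, at a percentile of 57.5. The other 6 scored between 1.44 and 2.88, all at percentiles below 30. Joining NeuroD1 regions of H524 within 10 kb over the whole genome gave 15188 groups. Of these, 7 held more regions than the 11 found here, the largest group of the locus, and 5 others held as many. In H82, 4 regions were joined over 11.8 kb. Of 3444 groups, 6 held more and 11 others held as many.

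**Figure D3:**
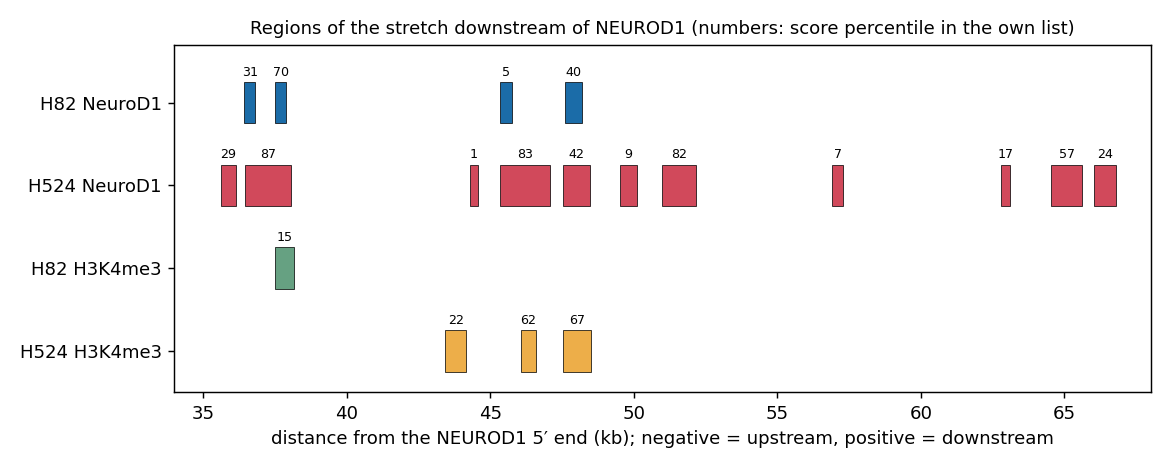
Regions of the 4 lists in the stretch downstream of NEUROD1, drawn to scale by distance in kb from the 5′ end; the number over a bar is its score percentile within its own list. The 4 H82 NeuroD1 regions lie over NeuroD1 regions of H524, and H3K4me3 of H82 and H524 is listed at different places.

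The promoter mark in this stretch was listed at a different place in each line. Over the whole lists, 52.4% of H82 and 52.9% of H524 H3K4me3 regions overlapped the other line. H82 had 1 H3K4me3 region, chr2:182506843-182507514, with a score of 2.01 and a percentile of 15.5. It contained the whole of the highest-scoring H82 NeuroD1 region of the locus. H524 had no H3K4me3 region there, although its NeuroD1 region at this place scored 10.6. H524 instead had the mark at chr2:182496488-182497453 with a score of 5.10, at chr2:182498421-182498933 with a score of 4.55 and at chr2:182500835-182501560 with a score of 2.18. The first and second of these overlapped H524 NeuroD1 regions by 915 and 513 bp. H82 had NeuroD1 inside the first of these places and beside the second, and no listed mark at either. The H82 region is in the lowest part of its list, while the H524 regions that scored 5.10 and 4.55 are above the median of theirs. With 1 library per line, whether the lines differ here was not tested.

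The remaining regions were scattered. H82 NeuroD1 had chr2:182417113-182417523, which lay 123 kb downstream of the gene, scored 4.17 at a percentile of 58.4 and was the only H82 NeuroD1 region of the locus without an H524 counterpart. Of the whole H82 NeuroD1 list, 53.6% overlapped H524 NeuroD1. H524 NeuroD1 had 3 regions between 182438375 and 182451715, of which the highest scored 4.90, and 1 of 375 bp at chr2:182519997-182520371 with a score of 1.76. H524 H3K4me3 had a pair of regions between 182448985 and 182450358 and another pair between 182521463 and 182522572, with scores from 2.18 to 3.83 and no H82 counterpart. Of the whole H524 H3K4me3 list, 52.9% overlapped H82 H3K4me3. Toward the edges, H3K4me3 alone was listed. Near the lower edge, H82 had chr2:182321908-182322873 with a score of 2.21, and H524 had the overlapping chr2:182321766-182322481 with a score of 2.18 and chr2:182322930-182323739 with a score of 3.41. Near the upper edge, 212 kb upstream of the gene, H82 had a 2360 bp region at chr2:182756850-182759209 that scored 7.69, at a percentile of 86.8. Within it H524 listed only chr2:182758516-182758828, 313 bp wide with a score of 1.41 and rank 18310 of 18595. The marked block at this place was therefore wide in H82 and near the threshold in H524. Upstream of 182549021 no NeuroD1 region was listed within the 500 kb in either line.

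**Figure D4:**
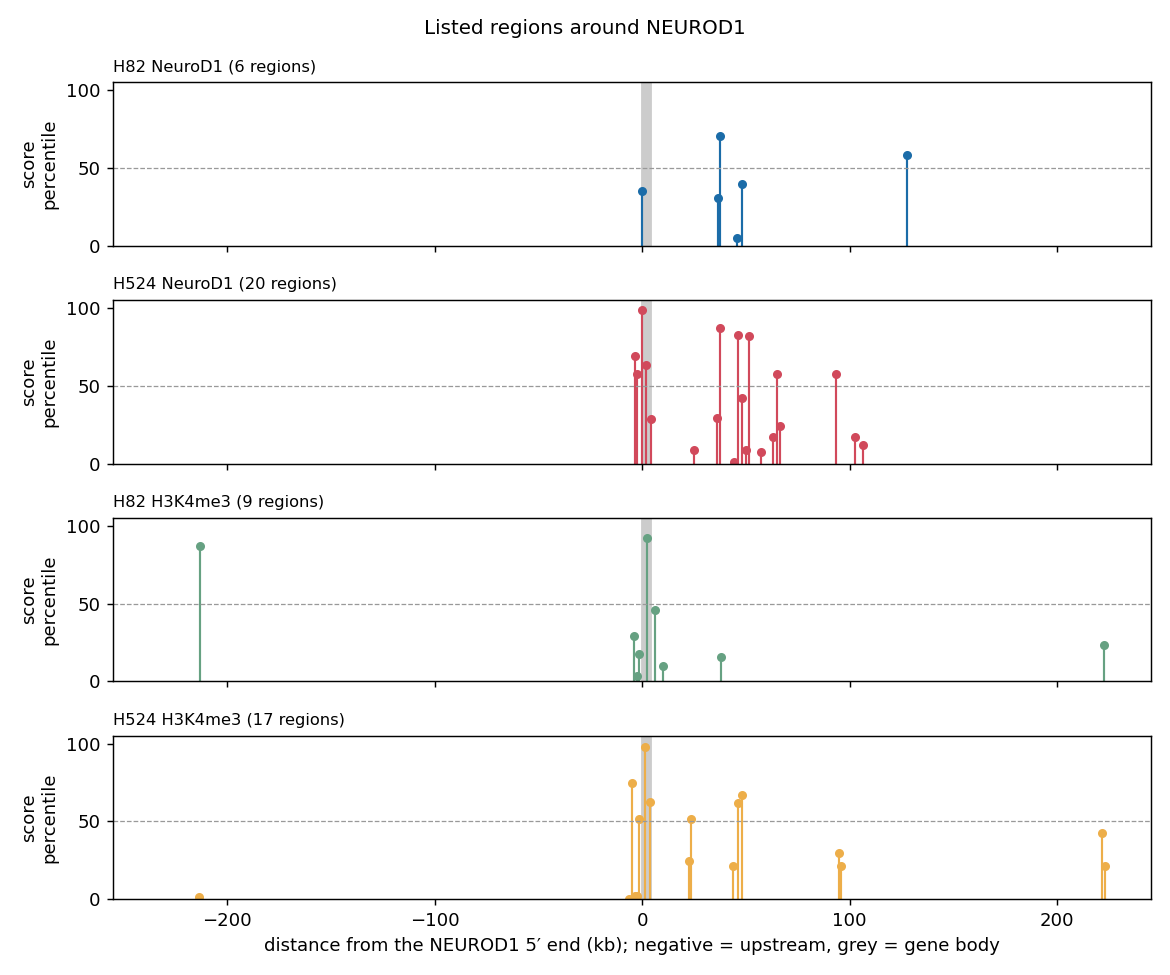
Every region of the 4 lists within the 500 kb around NEUROD1, placed at its middle by distance in kb from the 5′ end (negative is upstream, the grey band is the gene body), with its score percentile within its own list on the y axis and the list median dashed. NeuroD1 is on the gene and downstream of it in both lines, and the highest H524 point, at 98.6, is on the 5′ end.

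Outside the window, the nearest H524 NeuroD1 region was chr2:182275636-182276101, 23.9 kb below its lower edge, with a score of 20.7 and a percentile of 97.3. The nearest H82 NeuroD1 region on that side was 986 kb away and scored 3.98. Above the upper edge, the nearest NeuroD1 regions were 887 kb away in H82 and 886 kb away in H524, with scores of 3.51 and 4.04. The nearest H3K4me3 regions were at 453 kb below and 780 kb above in H82, and at 1428 kb below and 95.6 kb above in H524.

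The window held many regions for its size. The genome was divided into 5046 windows of 500 kb, counting those with a region of any list. With 6 H82 NeuroD1 regions, the NEUROD1 window was exceeded by 39 windows and matched by 26. Its 20 H524 NeuroD1 regions were exceeded by 52 windows and matched by 9. For H3K4me3, 426 windows held more than its 9 regions in H82, and 102 held more than its 17 in H524. These counts depend on how the mark was split into regions. Each line had 22 deposited H3K4me3 entries in the window. With regions within 1 kb joined, H82 had 6 and H524 had 7. The mean per window was 0.765 for H82 NeuroD1, 4.09 for H524 NeuroD1, 3.61 for H82 H3K4me3 and 3.69 for H524 H3K4me3. The locus was therefore dense in NeuroD1 regions in both lists, although most of its regions did not score high. The median score percentile over the locus was 37.4 for H82 NeuroD1, 35.5 for H524 NeuroD1, 23.3 for H82 H3K4me3 and 29.9 for H524 H3K4me3. Covered length was 3.83 kb for H82 NeuroD1 and 16.4 kb for H524 NeuroD1, and 13.1 kb and 13.6 kb for H3K4me3 of H82 and H524. The H524 NeuroD1 list is much the longer, and limiting it to its 3854 highest-scoring regions left 4 of the 20. These were the region on the 5′ end and those of the downstream stretch that scored 10.6, 8.96 and 8.73.

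**Figure D5:**
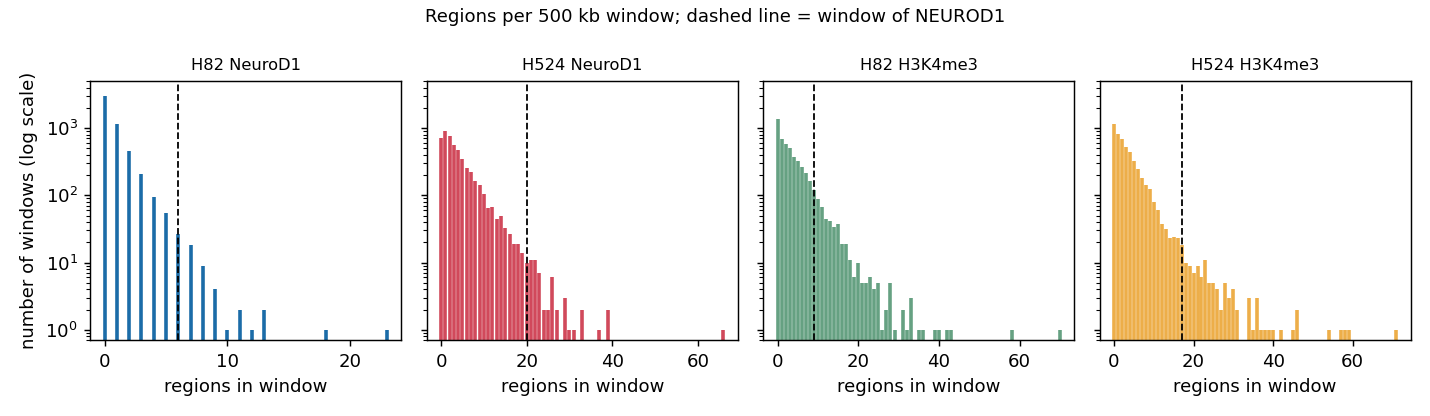
Number of regions per 500 kb window in each list, with the number of windows on a log axis; the dashed line marks the window of NEUROD1, at 6, 20, 9 and 17 regions from left to right. The line lies in the upper tail for NeuroD1 in both lines and for H3K4me3 of H524, and closer to the bulk for H3K4me3 of H82. The region counts depend on how the mark was split, as both lines had 22 deposited H3K4me3 entries in this window.

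Most H82 NeuroD1 regions of the locus recurred in H524. The overlap, of at least 1 bp, was 5 of 6 (83.3%, exact Clopper-Pearson 95% interval 35.9 to 99.6), against 53.6% of the whole H82 list. In the other direction, 4 of the 20 H524 regions (20%, 5.73 to 43.7) overlapped H82 NeuroD1, against 9.98% of the whole list. For H3K4me3, 6 of 9 H82 regions (66.7%, 29.9 to 92.5) overlapped H524, against 52.4%, and 8 of 17 H524 regions (47.1%, 23.0 to 72.2) overlapped H82, against 52.9%. Each of these intervals includes the share of the whole list. They cover counting error only, and neighbouring regions are not independent draws. The shares of the lists were not matched for width. At the median, the locus regions were wider than their list in H524 NeuroD1 (584 against 470 bp). The same held for H3K4me3 of H82 (966 against 563 bp) and of H524 (653 against 526 bp). In H82 NeuroD1 the locus regions were slightly narrower (408.5 against 415.5 bp).

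A minority of the NeuroD1 regions of the locus lay on the promoter mark of the same line. In H82 these were 2 of 6 (33.3%, 4.33 to 77.7), the region on the 5′ end and the highest-scoring region downstream, against 29.4% of the list. In H524 they were 7 of 20 (35.0%, 15.4 to 59.2), against 16.0% of the list. All 5 H524 NeuroD1 regions within 5 kb of the gene were among the 7, and the other two lay in the downstream stretch. From the side of the mark, 2 of 9 H82 regions (22.2%, 2.81 to 60.0) and 7 of 17 H524 regions (41.2%, 18.4 to 67.1) overlapped NeuroD1, against 6.34% and 18.0% of their lists. The lower bound of the H524 interval lies just above the value of its list, which is a description and not a test. Most of these 7 regions are neighbouring pieces of the mark at the gene and not independent draws. This bound therefore cannot decide whether the share differs from that of the list. The shares of the lists were not matched for width here either.

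Regions with several entries, that is, the same interval listed more than once with different scores, included the highest-scoring region on the gene in all 4 lists. These gene regions were also at width percentiles of 99.3 to 99.7, and the shares of the lists were not matched for width. In H82 NeuroD1 the region on the 5′ end was the 1 such region of 6 (16.7%, 0.421 to 64.1), against 5.71% of the list. In H524 NeuroD1 there were 5 of 20 (25.0%, 8.66 to 49.1), against 12.1%, and 3 of them lay in the downstream stretch. H3K4me3 had 2 of 9 in H82 (22.2%, 2.81 to 60.0), against 22.4%, which were the block on the gene and the wide region near the upper edge. In H524 they were 4 of 17 (23.5%, 6.81 to 49.9), against 19.7%, and 3 of the 4 lay within 5 kb of the gene.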

How the data were processed

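The 4 immunoprecipitated libraries each have 1 deposited peak list with chromosome, start, end, name and score, and no header. Per the submitters' processing notes, MACS2 2.1.1, Bowtie 1.1.2, Picard 1.118, Trimmomatic 0.38, SAMtools 1.9, bcl2fastq 1.8.4, R 3.5.1 and ChIPseeker 1.18.0 were used with build hg19. Settings and any use of input as control are not stated in those notes as given here. Without matched input, copy number and mappability would enter the scores. The deposited score was read as −log10 of an adjusted p-value from its values, as every list starts just above the 1.30 that corresponds to 0.05. The input libraries were not analysed here.

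Entries with identical intervals were merged, keeping the highest score, and starts were converted to 1-based. Ranks count regions with a higher score or width. An overlap needed 1 shared bp or more. Python 3.11.15 was used with matplotlib 3.10.9, scipy 1.17.1, pandas 2.3.3 and numpy 2.4.6. The overlap step was checked with planted copies of the listed regions, and the rank step with shuffled values. Every region of lists with 10 or fewer in the locus was to be named, and of longer lists those within 5 kb of the gene, the 5 highest by score and those overlapping another list; others named were chosen after their values were seen. The locus, the tests and the regions were chosen with earlier results of these data known. An hg19 sequence and annotation were not used here, and bounds of NEUROD1 are approximate. Promoter sequence and gene order came from RefSeq (GRCh38.p14). Alternatives changed the overlap rule, score threshold, merging, window, ranking and list length.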

Additional observations from a re-analysis of the deposited data

How the results depend on the processing

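Of the 74 alternative values, 45 kept a count within 1.5 times the reported one or a percentile within its counting interval, and 29 moved. A score threshold at the median of each list left 2 and 9 regions of H82 and H524 NeuroD1 in the locus, and 2 and 7 of H82 and H524 H3K4me3. Under that limit 0 H82 NeuroD1 regions and 1 H82 H3K4me3 region stayed within 5 kb of the gene, so the H82 binding at the promoter rests on a region below the median score. The covered length became 817 bp for H82 NeuroD1, 7143 bp for H82 H3K4me3 and 8457 bp for H524 H3K4me3. With both lists so limited, NeuroD1 on H3K4me3 of the same line became 0 of 2 regions in H82 and 4 of 9 in H524. Without the limit these were 2 of 6 and 7 of 20. Within 50 kb of the gene, H524 NeuroD1 had 13 regions. With regions within 1 kb joined, H524 NeuroD1 had 12 in the locus, H524 H3K4me3 had 7 and H82 H3K4me3 had 6. The H3K4me3 count was 22 in each line as deposited entries. H524 NeuroD1 limited to the length of the H82 list, added after seeing the data, had 4 regions and covered 1117 bp of the gene body. Counting only regions that touch the gene gave 3 for H524 NeuroD1, 1 for H82 H3K4me3 and 2 for H524 H3K4me3. Allowing 1 kb between regions raised the shared H524 NeuroD1 regions to 7. Among regions of chromosome 2, the score percentile of the highest-scoring region on the gene was 40.6 for H82 NeuroD1, 99.6 for H524 NeuroD1 and 89.0 for H82 H3K4me3. Its width percentile there was 99.7, 99.8 and 99.9 in these lists. Over entries as deposited, the score percentile was 92.8 for H82 H3K4me3 and 98.2 for H524 H3K4me3. Leaving out chromosome 8 kept all 4 score percentiles within their counting interval. No paired analysis was possible because each group has 1 library and the labels carry no replicate numbers, and for the same reason no library was left out.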
